A study of Mus musculus with 2 samples.

Results

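Mouse neural stem cells leaving quiescence were compared, 24 h after the change of medium, with cells of the quiescent culture that shared their plate. The cells were chosen by the condition that the authors' table of single cells gives them: 151 cells were marked as 24 h exit and 174 as quiescent, together 325 of the 640 cells of the series. The cells had been purified from the hippocampus of C57BL6/J mice, all male and aged 6 weeks, and grown in serum-free medium. The quiescent culture had been kept for 3 days or more with 50 ng/mL of BMP4 and with FGF2, heparin at 5 µg/mL and no EGF. The 24 h culture came from such quiescent cells that were then given activation medium, which has no BMP4 and holds FGF2 and EGF, each at 20 ng/mL, and heparin at 5 µg/mL, together with 0.5 µg/mL of noggin, a secreted protein that binds BMP4. Withdrawal of BMP4, return of EGF and addition of noggin came together, so their parts in any difference cannot be told apart. The series also holds cells at 48 h of exit and activated cells, on another plate, and their values are set beside these where a gene turns on them.

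BMP4 is a ligand of the TGF-beta superfamily. It joins type I and type II serine/threonine kinase receptors, which phosphorylate SMAD1, SMAD5 and SMAD9, and these enter the nucleus with SMAD4 and switch on the Id genes as well as inhibitors of the pathway itself. In the adult hippocampus BMP signalling holds neural stem cells out of the cycle, whereas EGF and FGF2 act through receptor tyrosine kinases and the RAS-MAPK cascade and promote division. Cultured stem cells held with BMP4 and FGF2 are a widely used model of the quiescent stem cell.

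Each state was 1 culture. The sorter had drawn 4 gates over the range of punctate autofluorescence, which is light given off by undyed cells, and the transcripts of each culture were summed over all cells and within each gate. The gates thus gave 4 readings of the same pair of cultures and are not replicates. Gate values are listed from the lowest to the highest autofluorescence, and the gates between the low and the high one are named low-mid and mid-high. No test between the states was possible. Intervals of 95% cover the error of counting transcripts and nothing else. Levels are transcripts per 1000000 counted (CPM) in the culture or gate. Each transcript is counted at its 3′ end, so levels of different genes need no division by length. A log2 ratio is that of the 24 h level over the quiescent level after 10 CPM was added to both, which understates the change of scarce transcripts.

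The summed depth was 4815934 transcripts in the quiescent culture and 3046628 at 24 h. Single cells held 5143 to 76102 and 5013 to 39960 transcripts. The median of a 24 h cell was 0.767 times that of a quiescent cell by transcripts and 0.740 times by transcripts per count of the external ERCC spike-in RNA, while the spike-in counts themselves had a ratio of 1.01. Within the gates the ratios per spike-in count were 0.935, 0.809, 0.645 and 0.705, and those of the spike-in counts 0.959, 1.02, 1.19 and 0.848. Forward scatter, which follows cell size, was 0.745 times the quiescent median and side scatter 0.693 times. Levels in CPM are shares of a smaller total at 24 h, and a lower share and less RNA per cell, or fewer cells of a kind, cannot be told apart from such sums. The quiescent cells filled the upper rows of the plate and the 24 h cells the lower ones, so that position on the plate and state cannot be told apart either. Markers of microglia, endothelium, pericytes and fibroblasts, and ependyma, with 6, 6, 7 and 5 genes in the table, all lay under 5 CPM in both cultures, and Csf1r, Fcer1g and Col1a2 had no transcript in either. Of 11 markers of neurons and neuroblasts, 6 lay under 5 CPM in both cultures, and Rbfox3, which marks mature neurons, had no transcript. Others were present, with Map2 at 202 and 333 CPM and Tubb3 at 41.4 and 7.55 CPM. Of 14 stem cell markers, 2 lay under 5 CPM in both cultures. Of the 12 with at least 20 transcripts over both, 8 were higher at 24 h and 4 lower. Sox2, at 192 and 263 CPM, and Slc1a3, at 721 and 1036 CPM, were higher, and Fabp7, at 4901 and 2369 CPM, was lower. The table of single cells placed 166 of the 174 quiescent cells in 1 of the authors' clusters and 145 of the 151 cells at 24 h in another.

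Of 10462 genes with at least 20 transcripts over both cultures, 129 (1.23%) were higher at 24 h by 2-fold or more in the sums and higher in all 4 gates, and 238 (2.27%) were lower by the same rule, together 367 (3.51%). With 2-fold in the sums alone the counts were also 129 and 238, so the condition on the gates removed no gene. The lower genes held 5.56% of all transcripts of the quiescent culture and 1.86% at 24 h, and the higher genes 1.06% and 2.97%. The plot of every gene in both cultures shows the bulk of the transcriptome on the diagonal, with a median log2 ratio of -0.01 over all genes. Measured against spike-in counts instead, so that the smaller total of a 24 h cell counts as a loss, the median over all genes was -0.30 and the split was 51 higher and 469 lower. All 4 gates of 1 culture lay above all 4 of the other for 832 genes (7.95%) towards 24 h and 1059 (10.1%) towards quiescence. Of the 367 genes, 37 higher and 54 lower ones were members of the 55 gene lists used below, and 92 and 184 were in none. The share of all measured genes in a list was not counted. These numbers therefore do not show whether the genes past 2-fold were more or less often list members than others.

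**Figure D1:**
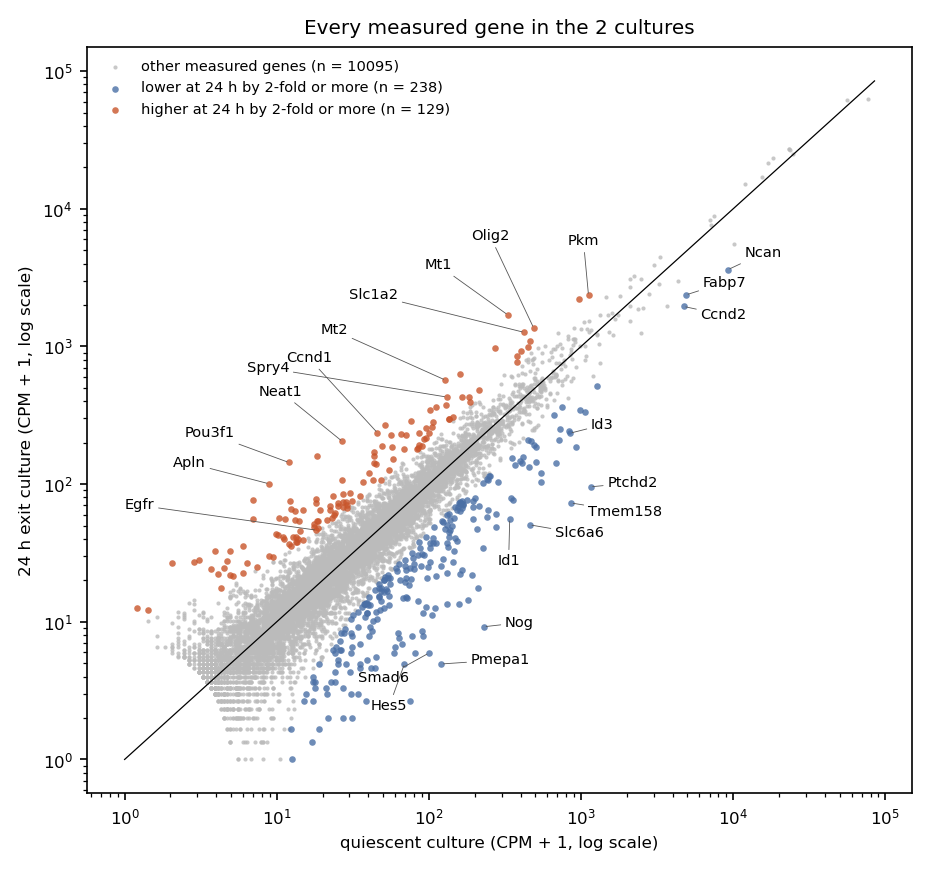
Level of each of the 10462 measured genes in the quiescent culture (x axis) and the 24 h exit culture (y axis), in CPM with 1 added and on log scales; the line marks equal levels. Genes higher by 2-fold or more (129) lie above the line, among them Egfr, Pou3f1 and Pkm. Those lower (238) lie below it, among them Hes5, Nog and, at 9241 and 3613 CPM, Ncan.

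Of the targets that BMP signalling induces, 17 were measured, and all 17 were lower at 24 h, where 51.7% of all genes were lower and 48.3% higher, with a median log2 ratio of -0.82 beside -0.01 over all genes. The ratio nearest to no change was -0.02. That of Cdkn1a was -0.11 and ran from -0.56 to 0.46 over the alternatives, so its sign was not fixed. The 7 past 2-fold were Id1, Id3, Id4, Hey1, Smad6, Smad7 and Nog. Their loss was unequal. The Id genes encode helix-loop-helix proteins that bind bHLH factors and keep them off DNA, and the 4 members differed widely among themselves. Id4 stood at 132, 79.1, 87.7 and 73.7 CPM in the quiescent gates and at 3.98, 10.4, 12.6 and 2.28 CPM at 24 h, a log2 ratio of -2.49 (interval -2.76 to -2.18). Id1 stood at 411, 395, 316 and 285 CPM in the quiescent gates and at 29.9, 29.9, 89.1 and 62.6 CPM at 24 h. The gates of the cultures did not overlap for either gene. Id3, the most abundant of the 4 in quiescence, was at 899, 916, 825 and 791 CPM and then at 149, 161, 284 and 307 CPM. Id2 was at 336, 451, 483 and 470.4 CPM and then at 139.5, 234, 386 and 336 CPM, and here the gates of the cultures overlapped. At 48 h, on the other plate, Id2 was at 57.5 CPM and Id4 at 0.970 CPM.

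Inhibitors of the pathway were mostly lower too, in a list that shares Nog, Smad6, Smad7 and Bambi with the induced targets above. Of 18 antagonists and feedback inhibitors measured, 14 were lower and 8 past 2-fold, with a median log2 ratio of -0.68. The 8 were Nog, Pmepa1, Smad6, Smad7, Skil, Ski, Fstl1 and Bmper. The cells' own Nog, the gene of the antagonist that was also added to the medium as protein, was at 266, 296, 239.8 and 163 CPM in quiescence and at 12, 5.75, 8.78 and 7.97 CPM at 24 h, the lowest log2 ratio of all genes named by rule at -3.72. Smad6, an inhibitory SMAD that blocks the receptors and SMAD1, was at 124, 94.9, 114 and 78.9 CPM and then at 1.99, 5.75, 8.79 and 2.28 CPM. Pmepa1, a membrane protein that holds receptor SMADs away from the receptor, was at 115, 106, 117 and 133 CPM and then at 1.99, 3.45, 7.53 and 2.28 CPM. For all 3 every quiescent gate was more than 8 times as high as every 24 h gate. Skil and Ski, nuclear repressors that bind SMADs, were at 103 and 396 CPM in quiescence and at 10.2 and 146 CPM at 24 h. Bambi, a receptor decoy, was at 22.6 and 7.22 CPM, a log2 ratio of -0.92 with the gates apart. Htra1, a secreted protease, and Tob1, an antiproliferative protein, were on the other side, with log2 ratios of 0.35 and 0.20.

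The upstream part of the pathway moved less evenly. Of 7 measured receptors and co-receptors 5 were lower, and only the type II receptor Bmpr2 passed 2-fold, with 891, 822, 695 and 614 CPM in the quiescent gates and 227, 269, 262 and 228 CPM at 24 h. The type I receptors Bmpr1a and Acvr1 had log2 ratios of -0.75 and -0.82, with the gates apart for both, while the activin receptor Acvr2a was at 0.32. Of 7 signal transducers only Zfp423, a zinc finger partner of the SMADs at BMP-responsive genes, passed 2-fold, at 111 and 20.4 CPM. Smad1, Smad4 and Smad9 had log2 ratios of 0.25, -0.33 and -0.22. Smad5 was higher, at 33.9 and 60.1 CPM, and its gates overlapped. Of the ligands 3 were measured, and Bmp7 had a log2 ratio of 0.53, Gdf11 one of -0.18 and Bmp1 one of -0.25. In the TGF-beta branch, 6 of 11 genes were higher and 5 lower, none past 2-fold.

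**Figure D2:**
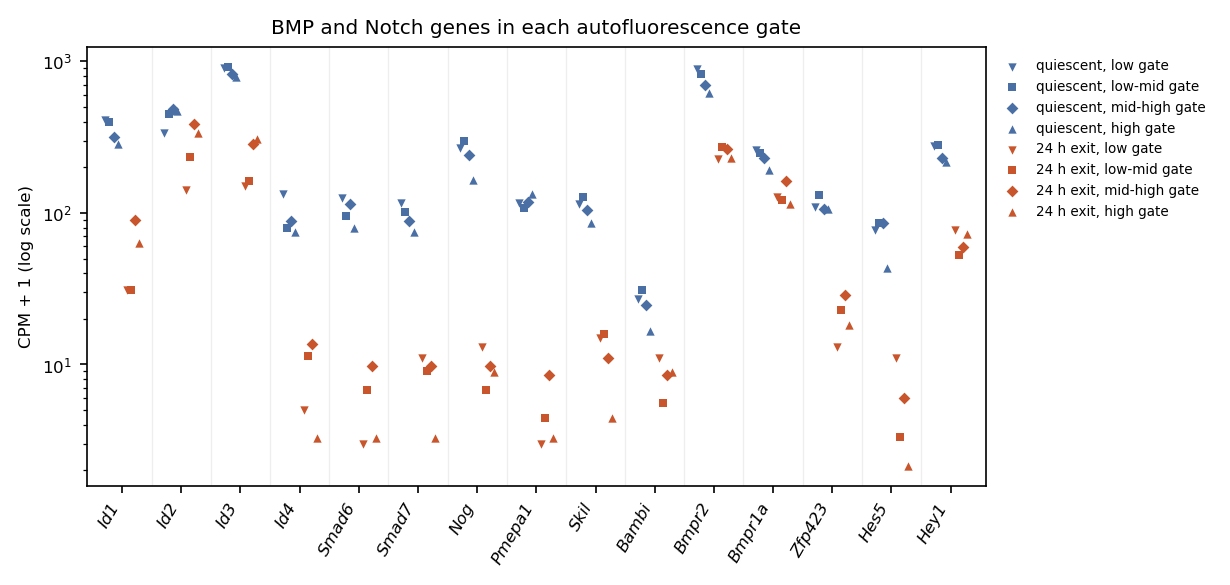
Level of 15 BMP and Notch genes in each autofluorescence gate (marker shape) of the quiescent culture (blue) and the 24 h exit culture (orange), in CPM with 1 added, log scale. The 8 points of a gene are 4 gates of 1 culture per state; the cultures overlap for Id2 and for no other gene drawn.

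Id4 and Hes5 are shown with their promoters because both lost most of their transcripts and their reference windows hold a GC-rich element that the SMADs of the BMP branch can bind. The windows are the 250 bases before the transcript start in RefSeq on GRCm38.p6, the build also called mm10. Id4 lies at chr13:48260866-48261115 and Hes5 at chr4:154960673-154960922, both on the + strand. Capitals mark each GGCGCC, which reads the same on both strands.
Id4: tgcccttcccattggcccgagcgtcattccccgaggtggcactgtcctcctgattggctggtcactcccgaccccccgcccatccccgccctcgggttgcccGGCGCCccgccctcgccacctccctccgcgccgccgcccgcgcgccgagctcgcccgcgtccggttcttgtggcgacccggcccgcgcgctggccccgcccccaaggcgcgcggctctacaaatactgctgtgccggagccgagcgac
Hes5: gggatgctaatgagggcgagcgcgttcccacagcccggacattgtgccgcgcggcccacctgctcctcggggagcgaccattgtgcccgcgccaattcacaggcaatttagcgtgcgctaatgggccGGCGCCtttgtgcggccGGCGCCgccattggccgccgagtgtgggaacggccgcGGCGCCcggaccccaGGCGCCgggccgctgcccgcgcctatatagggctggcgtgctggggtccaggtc
The motif occurred 4 times before Hes5, at 123, 106, 69 and 54 bases before the start, and 1 time before Id4, at 148 bases. GC made up 71.6% and 75.6% of the windows. Promoters were matched for 8453 of the 10462 measured genes (80.8%) and for 191 of the 238 lower ones (80.3%). GGCGCC was found in 17.8% of the 250-base windows of the measured genes and in 18.3% of those of the lower genes, so the window of a lower gene held it about as often as that of any other. A match describes letters in the window and is not a binding site.

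Hes5 also belongs to the Notch pathway, in which receptors cleaved by contact with ligand on a neighbour switch on Hes and Hey repressors. Hes5 was at 76.2, 84.7, 84.5 and 42.4 CPM in the quiescent gates and at 9.96, 2.30, 5.02 and 1.14 CPM at 24 h, and after every cell was reduced to 10928 transcripts it was seen in 29.7% of quiescent and 4.48% of 24 h cells. Hes1, the other main effector, was at 97.5 and 102 CPM, and the sign of its ratio depended on the scaling. Of 7 Notch targets 3 passed 2-fold, all lower: Hes5, Hey1 and Nrarp. Among the ligands and receptors, Notch1 was at 240.3 and 107 CPM and Jag1 at 167 and 91.3 CPM, with the gates apart for both, while Notch2 had a log2 ratio of 0.32.

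The Wnt list split as well. Wif1, a secreted inhibitor that binds Wnt ligands, was at 226, 222, 112 and 114 CPM in quiescence and at 9.96, 9.20, 15.1 and 14.8 CPM at 24 h. Axin2, a feedback inhibitor that is itself a common readout of beta-catenin, was at 7.13, 9.30, 13.6 and 6.96 CPM and then at 47.8, 32.2, 50.2 and 38.7 CPM. The ligand gene Wnt5a was at 24.1 and 71.9 CPM. No gates overlapped for these 3, which were the only ones past 2-fold of 19 measured, and the median of the list was -0.15.

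In shares of transcripts, several genes of the growth factor response were higher, and a few of them carried the difference. Of 17 measured feedback inhibitors of the MAPK cascade, 12 were higher, and Spry2, Spry4 and Dusp6 passed 2-fold. The median log2 ratio was 0.30 in shares and -0.10 against spike-in counts. Spry4, which holds back RAS activation, was at 149, 145, 133 and 109 CPM in the quiescent gates and at 549, 492, 393 and 327 CPM at 24 h. Dusp6, the phosphatase that inactivates ERK, was at 192, 158, 166 and 152 CPM and then at 493, 497, 385 and 371 CPM. The ERK-responsive ETS factors parted: Etv5 was at 449.6 and 807 CPM with the gates apart, and Etv4 at 79.3 and 62.7 CPM with overlapping gates. Among 21 response factors Ier3, an early response gene, was the 1 higher past 2-fold and Maff, a small MAF factor, the 1 lower, at 62.5 and 6.56 CPM.

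Of 7 measured EGF and FGF receptors 3 were higher and 4 lower, with a median log2 ratio of -0.17. Past 2-fold were Egfr on the higher side and 1 gene, not Fgfr1, on the lower side. Egfr, the receptor of EGF, was at 11.9, 13.0, 17.9 and 22 CPM in the quiescent gates and at 49.8, 48.3, 37.7 and 46.7 CPM at 24 h, and a transcript was seen in 12.7% and 36.6% of the thinned cells. Fgfr1, a receptor of FGF2, was at 293 and 147 CPM, a log2 ratio of -0.94 (-1.09 to -0.80) with the gates apart. Both genes lay at 48 h, at 53.3 and 167 CPM, near their 24 h levels, although that culture was on another plate. Of the ligands, Hbegf, which activates EGFR, was at 239.9 and 56.8 CPM, and Fgf1 at 483 and 816 CPM.

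**Figure D3:**
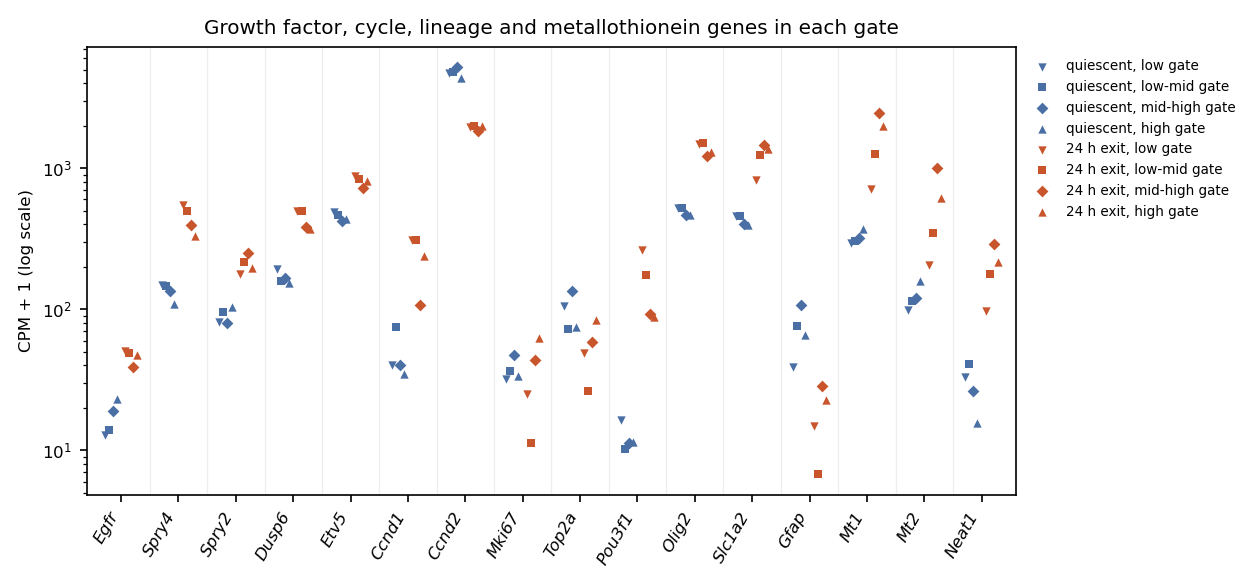
Level of 16 genes of growth factor response, cell cycle, lineage, astrocyte function, metallothioneins and the long RNA Neat1 in each gate (marker shape) of the quiescent (blue) and 24 h exit (orange) cultures, in CPM with 1 added, log scale. Mki67 and Top2a overlap between the cultures and the other 14 genes do not.

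The D cyclins, partners of CDK4 and CDK6 in G1, were exchanged in part. Ccnd1 was at 39.2, 73.5, 39.2 and 33.6 CPM in the quiescent gates and at 309, 308, 107 and 236 CPM at 24 h. Ccnd2, far more abundant, was at 4752, 4820.1, 5180.1 and 4365 CPM and then at 1962, 2004, 1834 and 1997 CPM, with no overlap for either. Summed over the 13 measured genes of G1 entry, of which 9 were lower, the level was 5189 CPM in quiescence and 2595 CPM at 24 h, and Ccnd2 made up most of both. Ccnd2 stood above Ccnd1 in every gate of both cultures, and at 48 h, on the other plate, Ccnd1 was at 1037 CPM and Ccnd2 at 1293 CPM.

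Transcripts of division were mostly lower in the sums. Of 34 genes of DNA replication 31 were lower, none past 2-fold, with a median log2 ratio of -0.34, and of 42 genes of mitosis 41 were lower, with a median of -0.22. The mitotic median ranged from -0.58 in the mid-high gate to 0.10 in the high gate, so its sign was not the same in all gates. With the cells called S or G2/M left out, the medians were -0.05 for replication and 0.0022 for mitosis. In thinned cells the replication genes summed to a median of 3 transcripts in both cultures, and the 90th percentile was 22.5 in quiescence and 6 at 24 h. Above 22.5 lay 10.1% of quiescent and 5.97% of 24 h cells, so the difference in that percentile rested on a small share of the cells. Top2a, which untangles DNA before mitosis, was at 104, 71.8, 133 and 73.5 CPM and then at 47.9, 25.3, 57.9 and 83.3 CPM. Mki67, which cycling cells express, had 30.9, 35.4, 46.1 and 32.6 CPM and then at 23.9, 10.4, 42.8 and 61.7 CPM, and the gates of both genes overlapped. The authors' phase calls put 16 of 174 quiescent cells (9.20%, interval 5.35 to 14.5) and 7 of 151 cells at 24 h (4.64%, 1.88 to 9.32) in S or G2/M. Of the growth arrest genes, Cdkn1a and Cdkn1b differed by less than their gates did, at 255 and 235 CPM and at 105 and 98.8 CPM. Gas1, a membrane protein of growth arrest, was higher, at 85.4 and 235 CPM, while the stress sensors Gadd45b and Gadd45g were lower, the latter at 61.3 and 7.22 CPM.

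Transcription factors of the neural lineage were mixed, with 16 of 28 higher. Pou3f1, a POU factor of neural progenitors, was at 15.5, 9.30, 10.2 and 10.4 CPM in the quiescent gates and at 263, 175, 91.7 and 87.7 CPM at 24 h, the highest log2 ratio of the genes named by rule at 2.86 (2.61 to 3.10), and it was seen in 6.96% and 52.2% of the thinned cells. Within the 24 h culture the low gate was at 3 times the high gate, whereas the quiescent gates ran from 9.30 to 15.5 CPM. Olig2, a bHLH factor of progenitors and of the oligodendrocyte lineage, was at 519, 523, 466 and 462 CPM and then at 1472, 1498, 1221 and 1296 CPM. Pdgfra, a receptor of oligodendrocyte precursors, was under 5 CPM in both cultures. Pax6 was lower, at 60.2 and 22.3 CPM, with the gates apart. The filament genes parted: Nes was at 56.9 and 152 CPM, Gfap at 72.5 and 17.4 CPM, both with gates apart, and Vim at 551 and 594 CPM with overlap.

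Transporters of astrocytes, which stem cells of the hippocampus share, were higher at 24 h in 9 of 13 cases, with a median log2 ratio of 0.56. The median was -0.06 in the low gate and 0.53, 0.70 and 0.76 in the others, so its sign was not the same in all gates. Slc1a2, the glutamate transporter GLT-1, was at 456, 460.1, 402 and 394 CPM in quiescence and at 826, 1229, 1456 and 1376 CPM at 24 h. Gja1, the gap junction protein connexin 43, was at 42.4 and 142 CPM, but its 24 h low gate, at 43.8 CPM, fell inside the quiescent range. Aqp4, the water channel, was the 1 gene lower past 2-fold, at 360.0, 271, 177 and 216 CPM and then at 51.8, 94.5, 133 and 124 CPM. In both Slc1a2 and Aqp4 the 24 h low gate stood apart from the other gates of its culture. On the other plate Slc1a2 was at 291 CPM at 48 h and 17.1 CPM in activated cells, so that its 24 h level was the highest of the 4 cultures.

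A few further genes also had their highest level at 24 h. Mt1 and Mt2 encode metallothioneins, small proteins that bind zinc and copper. Mt1 was at 295, 305, 317 and 368 CPM in the quiescent gates and at 710.5, 1262, 2472 and 1978 CPM at 24 h, and Mt2 at 97.5, 113, 119 and 157 CPM and then at 203, 345, 995 and 610.3 CPM. At 48 h they were at 482 and 89.7 CPM and in activated cells at 508 and 139 CPM. Reads of such related genes may be shared between them, which was not tested. Mt3 was at 123 and 138 CPM with overlapping gates, and the zinc exporter Slc30a1, another gene induced by zinc, was at 32.0 and 36.8 CPM. The promoters of Mt1 and Mt2 are shown because the pair moved together, at chr8:94178839-94179088 and chr8:94172368-94172617 on the + strand of GRCm38.p6, again as the 250 bases before the start from RefSeq. Capitals mark TGCGCNC, the core of the metal response element, and its variant TGCACNC, on either strand. The variant was added to the search after the data had been seen.
Mt1: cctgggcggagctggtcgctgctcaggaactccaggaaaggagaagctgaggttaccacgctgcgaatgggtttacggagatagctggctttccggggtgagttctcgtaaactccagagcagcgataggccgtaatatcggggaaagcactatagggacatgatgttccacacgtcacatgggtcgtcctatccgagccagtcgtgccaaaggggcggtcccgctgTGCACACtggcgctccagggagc
Mt2: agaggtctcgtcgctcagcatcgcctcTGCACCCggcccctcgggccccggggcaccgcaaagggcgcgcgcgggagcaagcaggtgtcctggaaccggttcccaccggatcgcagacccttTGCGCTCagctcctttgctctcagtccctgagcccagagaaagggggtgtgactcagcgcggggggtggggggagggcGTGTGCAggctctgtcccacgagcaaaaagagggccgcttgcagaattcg
The window of Mt1 held TGCACNC 23 bases before the start. That of Mt2 held TGCGCNC at 128 bases and TGCACNC at 223 and 50 bases. The core was in 23.1% and the variant in 10.5% of the 250-base windows of the measured genes, and in 12.5% and 10.4% of all promoter windows. Among the windows of the genes past 2-fold higher the shares were 16.2% for the core and 12.5% for the variant.

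Neat1, the long non-coding RNA of nuclear paraspeckles, was at 32.1, 40.0, 25.5 and 14.5 CPM in quiescence and at 95.7, 176, 288 and 214 CPM at 24 h, against 17.7 CPM at 48 h and 9.45 CPM in activated cells. Its gates ran in opposite order in the cultures, highest towards the high gates at 24 h and towards the low gates in quiescence. Hlf, a PAR bZIP factor and output of the circadian clock, was at 48.7, 38.1, 49.4 and 59.8 CPM and then at 233, 254, 278 and 287 CPM, against 67.4 CPM at 48 h and 7.92 CPM in activated cells. Of the 17 clock genes 13 were higher, Hlf alone past 2-fold, and the median of the list was 0.33. Nr1d2, a nuclear receptor of the clock, was at 66.3 and 138 CPM with the gates apart, whereas Nr1d1 was at 88.3 and 83.1 CPM and Hlf's relative Dbp at 3.95 and 5.91 CPM. Car6, a secreted carbonic anhydrase, was at 55.3 and 228 CPM, against 48.5 CPM at 48 h. Gas1, Pou3f1 and Apln, the gene of the peptide apelin, did not share this pattern. Apln was at 7.89 and 99.6 CPM, and at 138 CPM at 48 h.

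In shares of transcripts, energy metabolism was higher by small steps. Of 24 measured genes around the citric acid cycle 23 were higher, 18 of them with the gates apart, and none passed 2-fold. Their summed level was 4935 CPM in quiescence and 6794 CPM at 24 h, and the gates ran from 4762 to 5135 CPM and from 6650.0 to 6983 CPM, with no overlap. The median log2 ratio was 0.45 in shares and 0.0047 against spike-in counts. Citrate synthase, Cs, was at 682, 659, 665 and 690.5 CPM and then at 962, 966, 892 and 996 CPM. The exception was Pcx, pyruvate carboxylase, at 32.0 and 13.8 CPM. For the respiratory chain, 32 of 36 genes of complex I and 34 of 36 of complexes III to V were higher, with medians of 0.30 and 0.27, which were -0.14 and -0.18 against spike-in counts. All 15 measured genes of the mitochondrial genome were higher, with a median of 0.23 in shares and -0.24 against spike-in counts, and 3 of them had the gates apart.

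Within glycolysis 12 of 18 genes were higher, with a median of 0.14 in shares and -0.32 against spike-in counts. The 3 past 2-fold were Pkm, pyruvate kinase, at 1118 and 2352 CPM, Gpi1, the isomerase of glucose 6-phosphate, at 379 and 772 CPM, and Gpd1, which makes glycerol 3-phosphate, at 17.4 and 159.7 CPM. Ldha and Ldhb, the subunits of lactate dehydrogenase, had log2 ratios of -0.43 and 0.59. Hk1 and Hk2, hexokinases, had 0.32 and -0.57. In fatty acid oxidation 24 of 30 genes were higher, with Cpt1a, the gate of entry to mitochondria, at 22.6 and 58.4 CPM and Acsl6, an acyl-CoA synthetase, at 16.6 and 47.9 CPM. The median was 0.25 in shares and -0.16 against spike-in counts. The summed level of that list was lower, 8547 and 6703 CPM, since the lipid carrier Fabp7 in it was at 4901 and 2369 CPM. Cholesterol and fatty acid synthesis was lower in 25 of 30 genes, with a median of -0.26, but none passed 2-fold and the median of the low gate was 0.07. Cyp51 had 24 h gates at 199, 113, 89.1 and 75.2 CPM beside 195, 184, 147 and 165 CPM in quiescence, so the cultures were level in the low gate and apart in the high gate.

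**Figure D4:**
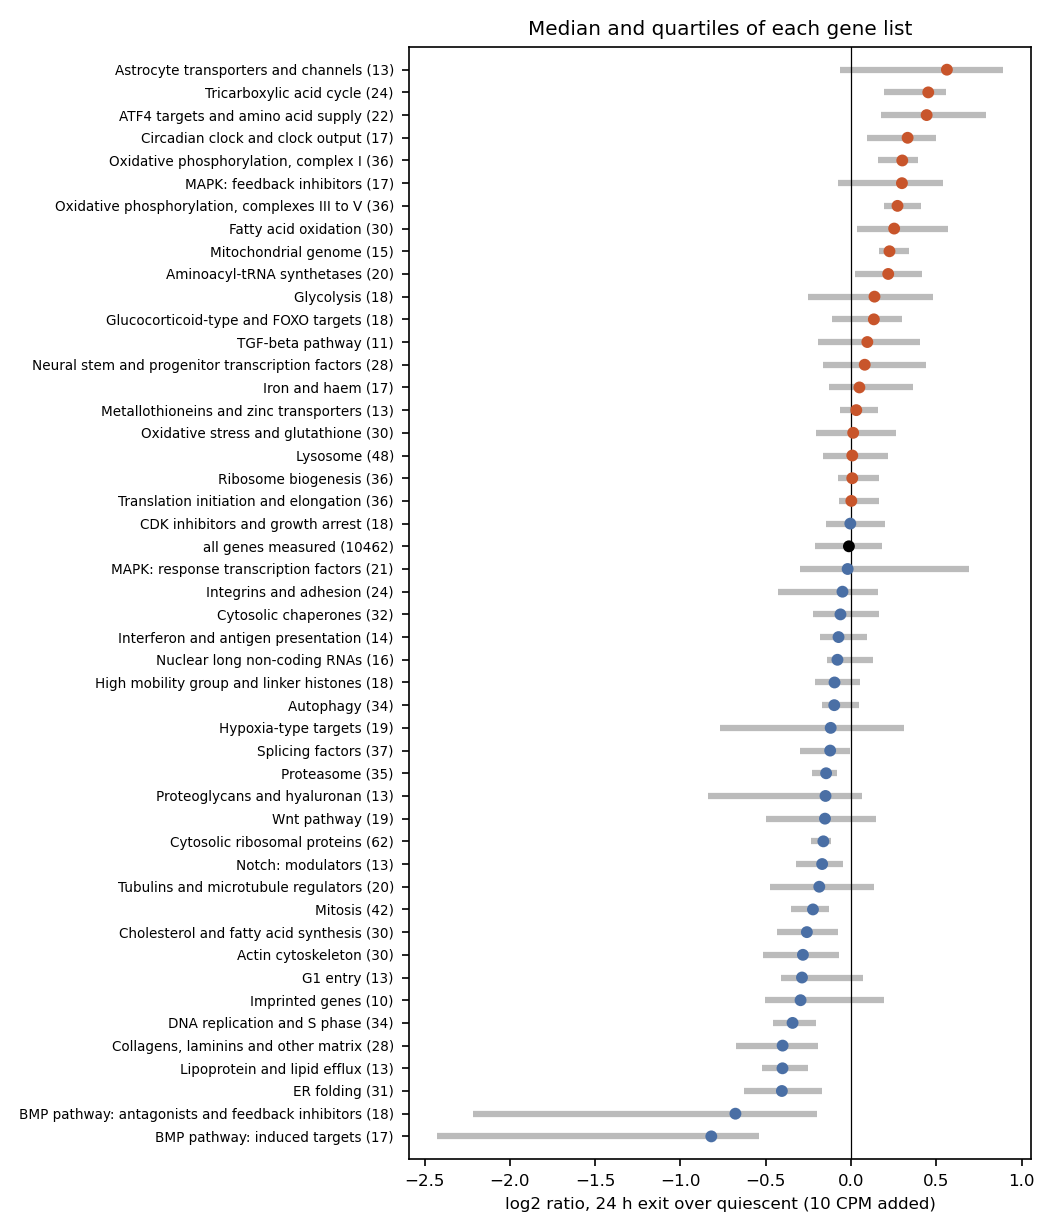
Median (point) and quartiles (bar) of the log2 ratio of 24 h exit over quiescent for each gene list with 10 or more measured members (number in brackets) and for all 10462 measured genes (black). Medians run from 0.56 for astrocyte transporters to -0.82 for the induced targets of BMP, and the bars of the BMP lists are the longest.

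The secretory pathway and the supply of amino acids parted. Of 31 genes of folding in the endoplasmic reticulum 26 were lower, 14 with the gates apart, with a median of -0.41. Calr, the chaperone calreticulin, was at 1195, 1096, 939.7 and 820.4 CPM in quiescence and at 377, 325, 322 and 369.7 CPM at 24 h. Xbp1, a transcription factor of the unfolded protein response, and Pdia6, a disulfide isomerase, were at 122 and 52.9 CPM and at 224 and 100.5 CPM, and these 3 were the members past 2-fold. Hspa5, the chaperone BiP, was at 473 and 245 CPM. Herpud1 and Dnajb9, also of this response, had ratios above 0, at 0.44 and 0.32.

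A list of targets of ATF4, the factor that raises amino acid supply under stress, and of other genes of that supply was higher in 19 of 22 cases. Its median of 0.44 kept its sign under every alternative run, but ranged from 0.07 to 0.54. Past 2-fold were Psat1 of serine synthesis, at 126, 96.7, 89.4 and 114 CPM and then at 289, 334, 219.8 and 287 CPM, Asns (asparagine synthetase) at 21.4 and 63.4 CPM, Aldh18a1 of proline synthesis at 12.5 and 40.4 CPM, Slc3a2 at 381 and 850.0 CPM and Chac1, which degrades glutathione, at 3.74 and 26.6 CPM. Slc6a6, the taurine transporter, went the other way, at 613, 480.0, 435 and 392 CPM and then at 9.96, 47.2, 67.8 and 58.1 CPM. Of 20 tRNA synthetases 15 were higher, with a median of 0.22 in shares and -0.18 against spike-in counts. Ribosome biogenesis split evenly, 18 genes higher and 18 lower. Of 62 cytosolic ribosomal proteins 58 were lower, with a median of -0.16, but the low gate had 0.12 where the high gate had -0.34. Eif4ebp1, which holds back translation, was at 24.3 and 68.6 CPM.

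Matrix genes were mostly lower. Of 28 measured collagens, laminins and other matrix genes 24 were lower, 13 with the gates apart, and the summed level was 5948 CPM in quiescence and 3977 CPM at 24 h. Tnc, the matrix protein tenascin C, was at 173, 100.5, 82.6 and 63.2 CPM and then at 19.9, 17.3, 3.77 and 9.11 CPM, and at 256 CPM in activated cells on the other plate. Timp3, an inhibitor of metalloproteinases, was at 507 and 187 CPM, and Lamc1, a laminin chain, at 248 and 114 CPM. Timp2 and the membrane protease Mmp15 were higher, with log2 ratios of 0.97 and 0.76. The proteoglycans of brain matrix split by gene. Ncan, neurocan, was at 8957, 9853, 9104 and 9092 CPM and then at 2744, 3324, 4072 and 3979 CPM, while Cspg5, neuroglycan C, was at 74.8 and 286 CPM and Ptprz1, a receptor phosphatase that carries chondroitin sulfate, at 399 and 929 CPM. All 3 had gates apart. Of the cytoskeleton, Actn1, which crosslinks actin, was at 90.8 and 10.5 CPM, and Plec, plectin, at 123 and 27.6 CPM.

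Lipid transport was lower in 12 of 13 genes, with a median of -0.40. Lcat, which esterifies cholesterol on lipoproteins, was at 1200.4, 1461, 1262 and 1190.0 CPM in quiescence and at 243, 325, 732 and 654 CPM at 24 h. Mylip, the ligase that degrades LDL receptors, was at 65.4 and 5.91 CPM. Apoe was at 746 and 556 CPM with overlapping gates. In iron handling, Trf, transferrin, was at 126, 147, 124 and 70.8 CPM and then at 329, 481, 308 and 319 CPM, and Cp, the ferroxidase ceruloplasmin, at 185 and 395 CPM. The small heat shock protein Hspb8 and its partner Bag3, which act together in chaperone-assisted autophagy, were at 276 and 60.1 CPM and at 78.1 and 28.2 CPM, while the list of 32 chaperones had a median of -0.06. Lysosome genes split evenly, with 25 higher and 23 lower of 48.

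Some of the genes with the widest differences belong to none of these lists. Tmem158, a membrane protein induced by RAS, was at 789, 907, 860.1 and 866 CPM in the quiescent gates and at 71.7, 80.5, 64.0 and 70.6 CPM at 24 h. Ptchd2, a patched-domain protein, was at 1139, 1288, 1152 and 1081 CPM and then at 83.7, 93.2, 95.4 and 101 CPM. Both differed by similar steps in the 4 gates, with log2 ratios from -3.56 to -3.29 and from -3.65 to -3.29. Diras2, a small GTPase, was at 208 and 16.7 CPM and Inpp5j, an inositol phosphatase, at 179 and 13.5 CPM. The next genes were chosen after their values had been seen. The receptor tyrosine kinase Kit was at 165 and 22.7 CPM, the tetraspanin Cd9 at 687 and 142 CPM and Cbfb, the partner of RUNX factors, at 1057 and 334 CPM. The growth factor gene Pdgfa was at 42.8 and 171 CPM and the sphingosine 1-phosphate receptor S1pr1 at 64.2 and 230.0 CPM.

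For several lists the difference lay in most cells. With each cell reduced to 10928 transcripts, 158 quiescent and 134 24 h cells remained. The 17 induced targets of BMP summed to a median of 31 transcripts in a quiescent cell and 10 at 24 h, and 80.6% of the 24 h cells lay below the 10th percentile of quiescent cells. Nog was seen in 67.1% (59.2 to 74.3) and 7.46% (3.6 to 13.3) of cells, and Id1 in 88.6% and 36.6%. The citric acid cycle genes summed to 53 and 70.5 transcripts, with 62.7% of the 24 h cells above the 90th percentile of quiescent cells, and the ER folding genes to 56 and 37. The MAPK feedback genes summed to 16 and 24.5, with 50.0% of the 24 h cells above that mark. The ATF4 list had medians of 20 and 22 transcripts, and 32.1% of the 24 h cells above the mark. Its sum includes Slc6a6, which had a median of 4 transcripts in quiescent cells and 0 at 24 h. The sum therefore cannot show in how many cells the other members differed.

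**Figure D5:**
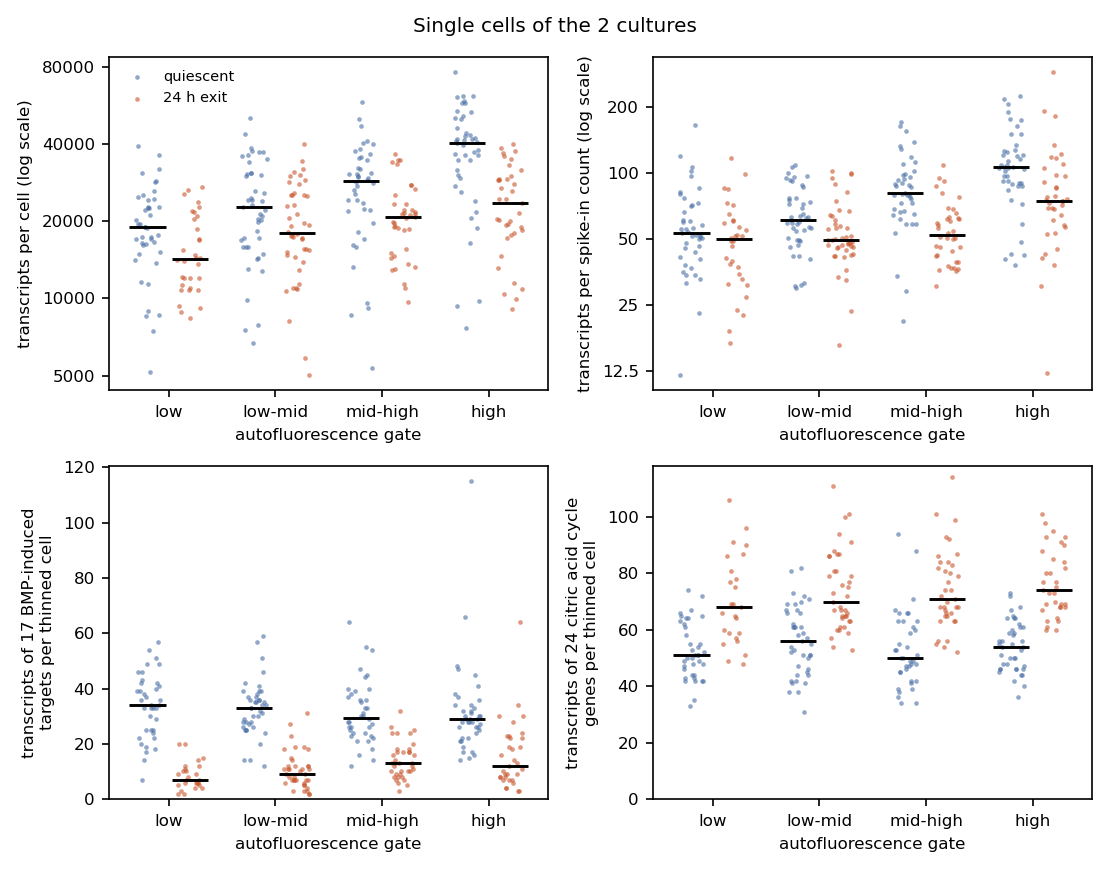
Single cells by autofluorescence gate (x axis), quiescent in blue and 24 h exit in orange, with medians as bars: transcripts per cell and per spike-in count on log scales, and the summed transcripts of 17 BMP-induced targets and of 24 citric acid cycle genes after thinning to 10928 transcripts. Medians of the BMP targets are 34, 33, 29.5 and 29 in the quiescent gates and 7, 9, 13 and 12 at 24 h.

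The size of several differences followed the gates. Cells had been drawn by autofluorescence, so its median over a culture is set by the sort, and within the gates the 24 h medians were 1.04, 1.08, 1.08 and 1.11 times the quiescent ones. Median transcripts per cell at 24 h were 0.753, 0.790, 0.723 and 0.580 times the quiescent ones from the low to the high gate. The 238 lower genes had median log2 ratios of -1.71, -1.51, -1.36 and -1.24 in that order, and 181 of them differed more in the low than in the high gate. Over all genes that held for 6094 of 10462, and the 129 higher genes showed no such order, at 1.33, 1.36, 1.26 and 1.34. The induced targets of BMP had medians of -1.42, -1.23, -0.95 and -0.72. Id3 differed by -2.51 in the low gate and -1.34 in the high gate and Lcat by -2.26 and -0.85, whereas Tmem158 had -3.29 and -3.44. In the opposite sense Neat1 differed by 1.33 in the low gate and 3.20 in the high gate, and Mt1 by 1.24 and 2.39. The gates also differ in the depth of their sums, from 501929 to 1724415 transcripts, and the part of depth in these orders was not tested.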

How the data were processed

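Hippocampal neural stem cells were sorted into plates and profiled by SORT-seq with CEL-Seq2 libraries, per the labels' protocols. The tools named in the submitters' processing notes are Seurat 4.1.1, BWA 0.7.15 and R 4.2.0, and of genome builds they list mm10 and hg19, giving no role. The authors deposited expected counts, corrected for transcripts that share 1 of 4096 identifiers. Per the file headers, the authors' table of cells gives total counts, percent of mitochondrial and ribosomal transcripts, a score for each phase, and the intensity of scatter and fluorescence. How cells were filtered and phases called is not given in the sources used here. The labels state 47 cells per condition, whereas the table holds 174 and 151.

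Deposited counts of 15364 genes were summed per culture and gate without rounding and scaled to CPM. Genes with 20 counts were kept. Ratios took 10 CPM added, with exact Poisson and conditional binomial intervals at 95%, and shares an exact binomial interval. All cover counting error only. Genes were called at 2-fold with 1 sign in 4 gates. Named genes were the 15 highest and 15 lowest log2 ratios with 100 counts, a count in 10% of cells and 1 sign in all gates, with predicted, ribosomal protein and mitochondrial genes left out, the 3 largest of each list, and a fixed set. Other list members were given beside them, and a few named by rule are left out here. The comparison, its members and the lists were chosen with earlier results of these data known. Alternatives covered scaling (edgeR 4.0.16 for TMM factors, under R 4.3.3), the CPM added, filters, thinning to the tenth percentile of totals, and gates left out.

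Counts of this comparison (10462 genes, 200 changed) were simulated with Poisson counting error alone, without variation between cells, gates or cultures. The simulation therefore cannot give a rate of false calls for the real cultures. On these counts the intervals held the true ratio for 95.8% of unchanged genes and no unchanged gene was called. Of 4-fold decreases 55.2% and of 4-fold increases 87.5% were called. Of genes changed exactly 2-fold, at the threshold, 4.55% of decreases and 6% of increases were called, since the added CPM shrinks ratios. Further tools were scipy 1.17.1, pandas 2.3.3, numpy 2.4.6, matplotlib 3.10.9 and Python 3.11.15. Wells with no condition were left out.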

Additional observations from a re-analysis of the deposited data

Results flagged for a closer look

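Outside the comparison, 59 of the 384 wells of the plate carried no condition or gate in the table of cells. Of these, 24 held 1000 or more transcripts and 10 held 5000 or more, with a median of 641 and a highest total of 15199 over the 59. They entered no sum.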

How the results depend on the processing

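Each state was 1 culture, so no value has a replicate check, and counting error limits scarce genes most. No paired analysis was possible because the labels give no replicate numbers and each state is 1 culture. The 367 genes past 2-fold (129 higher, 238 lower) became 873 (304, 569) with 1 CPM added, 171 (49, 122) when 2-fold was asked of each gate, and 51 higher and 469 lower against spike-in counts. Leaving out 1 gate gave 354 to 423 genes, of which 130 to 144 were higher and 221 to 279 lower. Against spike-in counts 4 of 55 lists had a median above 0, compared with 20 of 55 in shares, and the medians were -0.10 for MAPK feedback, -0.32 for glycolysis, -0.14 for complex I, -0.18 for complexes III to V, -0.24 for the mitochondrial genome and -0.16 for fatty acid oxidation, all above 0 in shares, and 0.0047 for the citric acid cycle, -0.58 for cholesterol synthesis, -0.74 for ER folding and -0.61 for ribosomal proteins. The median of the induced BMP targets was -1.69 with 1 CPM added, -1.43 in thinned cells and -1.35 with a minimum of 100 counts, where fewer of its genes remained in the last. The ratio of median totals per cell was 0.767, and leaving out 1 gate gave 0.671 to 0.819, the latter without the high gate. Of the 55 lists 28 kept 1 sign under all alternatives run, and 37 with the spike-in scaling left aside. Of 195 named genes 180 kept it, and so did all 93 of these past 2-fold. For the other moves the cause was not tested.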
